A study of Mus musculus with 8 samples.

Results

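The genes described here encode the enzymes that make cholesterol and fatty acids, together with the factors that regulate them. They form a fixed list of 31 genes taken from textbook pathways. Of these, 30 are among the 34199 genes of the files and all 30 passed the filter on low counts, as did 13080 genes in all; Hmgcs1 has no row in the files and was not analysed here. The list was split by role into the mevalonate pathway from acetyl-CoA to farnesyl and geranylgeranyl diphosphate (7 measured genes), the steps from squalene to cholesterol (11 genes), regulators and sterol transport (4 genes), and fatty acid synthesis and desaturation (8 genes).

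Expression was measured by bulk RNA sequencing in immortalised granulocyte-macrophage progenitors of the C57Bl/6 mouse (iGMPs), which all carried GFP under the lysozyme promoter as a reporter, and a fusion of HOXA9 with the hormone-binding domain of the estrogen receptor. The fusion protein is active while estradiol is present, and holds the cells in a self-renewing progenitor state in medium with stem cell factor. There were 4 groups of 2 libraries. The uninduced group was taken at 0 h, with estradiol at 150 ng/ml. CAF-1 OFF iGMPs were given 500 micromolar IPTG for 48 h with estradiol, which switched on an shRNA against Chaf1b, a subunit of the histone chaperone CAF-1. IPTG-treated control iGMPs were given IPTG for 48 h, and their labels give no vector, no IPTG dose and no estradiol level. HOXA9 OFF iGMPs were washed and kept for 48 h without estradiol, which sends iGMPs towards neutrophils. iGMPs are a single transduced system grown as clonal lines. The study describes its RNA-seq as drawn from independent subclones, and the labels do not tie a library to a subclone or culture. The p-values measure only the spread between these libraries.

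Cholesterol and fatty acids are both built from cytosolic acetyl-CoA. The genes of both pathways are classical targets of the sterol regulatory element-binding proteins SREBP-1 and SREBP-2, which stay in the endoplasmic reticulum while sterols are plentiful and are released to the nucleus when sterols run low. Dividing cells use these lipids for new membrane, and the mevalonate pathway also supplies the isoprenoid anchors of many signalling proteins.

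Counts assigned to genes were from 14044284 to 22423837 per library, and levels are given as CPM, the count scaled to the TMM-adjusted size of its library. A level of 3 counts, taken as the floor of detection, was from 0.128 to 0.212 CPM. Chaf1b, the target of the shRNA, was at 98.5 ± 2.46 CPM (SD, n = 2) in uninduced, 98.4 ± 4.66 CPM in IPTG-treated control, 14.2 ± 6.34 CPM in CAF-1 OFF and 44.7 ± 5.15 CPM in HOXA9 OFF iGMPs. Hoxa9 was at 234.6 ± 0.253 CPM in uninduced and 465.5 ± 22.3 CPM in HOXA9 OFF iGMPs, 1.98-fold higher (edgeR FDR 0.00032), which is opposite to the name of the group. Estradiol withdrawal acts on the fusion protein, so this count does not check the label. The 6 progenitor markers examined (Kit, Cd34, Flt3, Mpo, Elane and Prtn3) were expressed in every library, with a summed level of 7865 to 12926 CPM outside HOXA9 OFF iGMPs and of 6643 and 4814 CPM in them. In IPTG-treated control replicate 1, 14.6% of uniquely aligned reads lay outside annotated genes, against 5.30% to 7.79% in the other libraries.

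In uninduced iGMPs the members spanned a wide range of levels. Per kilobase of the longest annotated transcript, Scd2, which encodes a stearoyl-CoA desaturase, was the highest at 355.7 CPM per kb. Acly, whose product cleaves citrate to cytosolic acetyl-CoA, followed at 148.3 CPM per kb, and Fdps, which encodes farnesyl diphosphate synthase, at 125.6 CPM per kb. The lowest were Scd1, a second desaturase gene, at 0.469 CPM per kb and the isopentenyl diphosphate isomerase gene Idi1 at 2.03 CPM per kb. Between them lay the SREBP genes Srebf2 at 66.6 and Srebf1 at 47.5 CPM per kb, and Insig1, which encodes the protein that retains SREBP in the endoplasmic reticulum, at 93.4 CPM per kb.

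IPTG and 48 h of culture gave the background. Between IPTG-treated control and uninduced iGMPs 0 members were called and 0 had an unadjusted p-value under 0.05, with log2 fold changes from -0.12 to 0.12; a call needed an FDR under 0.05 in edgeR's quasi-likelihood test and a change of at least 1.5-fold. Of all tested genes 0% were called in that comparison, 100 (0.765%) had an unadjusted p-value under 0.05, and DESeq2 called 0 members and 5 genes in all.

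**Figure D1:**
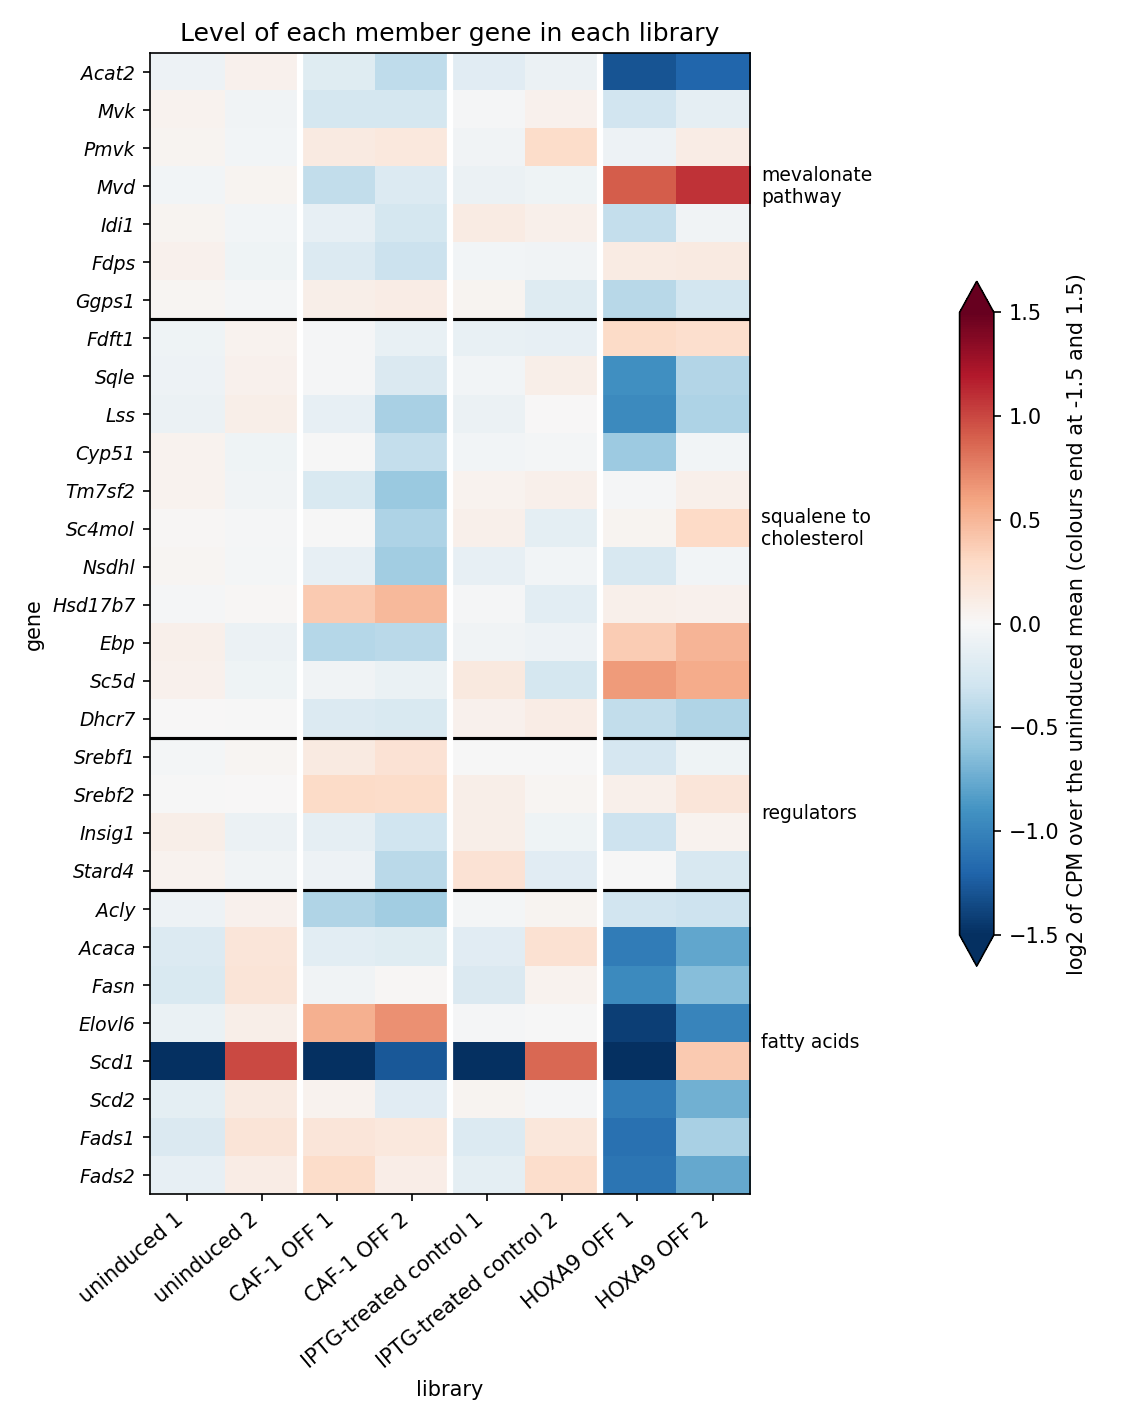
The heat map gives, for each of the 30 measured genes (rows, grouped by role) and each of the 8 libraries (columns), the log2 of its CPM over the mean of both uninduced libraries, from blue (lower) to red (higher), with colours ending at -1.5 and 1.5. Most of the fatty acid block is blue in both HOXA9 OFF libraries, Mvd is red there, and Scd1 differs between the replicates of every group other than CAF-1 OFF.

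The comparison of HOXA9 OFF with uninduced iGMPs asks how the pathway differs after estradiol is withdrawn. Of the 30 members 11 were called, 2 higher and 9 lower, while 47.2% of all tested genes were called, 25.2% higher and 22.1% lower. The median log2 fold change of the members was -0.20, against 0.01 for all tested genes. Without HOXA9 OFF replicate 1 the member median was -0.058, against 0 for all genes. Scaled by library size only, it was -0.39, against -0.18 for all genes. Of the 8 fatty acid genes 6 fell and 0 rose, whereas of the 18 genes of both sterol sections 3 fell and 2 rose, and 0 of the 4 regulators were called. The summed level of the fatty acid genes was 3322 and 4059 CPM in uninduced iGMPs and 2001 and 2412 CPM in HOXA9 OFF iGMPs; that of the squalene to cholesterol genes was 1298 and 1284 CPM and then 1092 and 1293 CPM, so that the groups overlapped.

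Both libraries of HOXA9 OFF also differed from the rest in markers of other states. The 6 maturing neutrophil markers (Ltf, Camp, Ngp, S100a8, S100a9 and Lcn2) were all called higher, with a summed level of 36.3 to 54.7 CPM in uninduced and IPTG-treated control iGMPs, 176.3 and 260.5 CPM in CAF-1 OFF iGMPs, and 8414 and 5734 CPM in HOXA9 OFF iGMPs. Of 6 macrophage markers 4 were called higher, with a summed level of 1008 and 1532 CPM in HOXA9 OFF iGMPs against 26.9 to 77.0 CPM elsewhere; C1qa was at 0 in every library other than HOXA9 OFF replicate 2. Of the 6 progenitor markers 3 (Kit, Cd34 and Flt3) were called lower, Mpo was not (log2 fold change -0.75, edgeR FDR 0.0506), and Elane and Prtn3 had values of 0.70 and 0.43 that were not called. Of 7 cell cycle markers 5 were called lower and Mki67 lay the other way, under 1.5-fold (log2 fold change 0.48, edgeR FDR 0.0468), with a summed level of 2239 and 1671 CPM against 2708 to 3007 CPM elsewhere. The part of these shifts in the lipid gene results was not tested. In bulk RNA, fewer cells of a type and less RNA per cell cannot be told apart.

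Elovl6, whose product lengthens palmitate towards stearate, had the largest change of the fatty acid genes. Its gene lies on the plus strand (mm9 chr3:129235304-129341413) and overlaps no other annotated gene. It was at 73.3 and 83.3 CPM in uninduced, 77.6 and 77.9 CPM in IPTG-treated control, 113.5 and 126.0 CPM in CAF-1 OFF and 29.4 and 39.5 CPM in HOXA9 OFF iGMPs. Elovl6 is the one member whose groups lay in opposite directions from the controls with a call in each, above them in CAF-1 OFF and below them in HOXA9 OFF iGMPs. Its log2 fold change in HOXA9 OFF against uninduced iGMPs was -1.19 (edgeR FDR 0.000401, SE 0.15). Fads2 and Fads1 encode the desaturases that make polyunsaturated fatty acids. Fads2 was at 158.0 and 187.0 CPM in uninduced, 156.2 and 207.3 CPM in IPTG-treated control, 208.8 and 185.5 CPM in CAF-1 OFF and 80.7 and 101.0 CPM in HOXA9 OFF iGMPs. Both HOXA9 OFF libraries were under all other libraries, and the log2 fold change was -0.92 (edgeR FDR 0.00268, SE 0.18). Fads1 was at 254.0 and 338.4 CPM in uninduced, 256.5 and 334.5 CPM in IPTG-treated control, 335.5 and 329.2 CPM in CAF-1 OFF and 135.9 and 211.1 CPM in HOXA9 OFF iGMPs. It was again lowest in HOXA9 OFF iGMPs (log2 fold change -0.77, edgeR FDR 0.023, SE 0.23), with a wider gap between replicates.

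Acaca, which encodes the acetyl-CoA carboxylase that commits carbon to fatty acids, was at 44.9 and 58.3 CPM in uninduced, 45.8 and 60.5 CPM in IPTG-treated control, 46.1 and 45.4 CPM in CAF-1 OFF and 25.0 and 30.1 CPM in HOXA9 OFF iGMPs. It fell in HOXA9 OFF iGMPs with a log2 fold change of -0.91 (edgeR FDR 0.00406, SE 0.19). Fasn, the fatty acid synthase gene, was at 420.3 and 565.7 CPM in uninduced, 423.4 and 511.1 CPM in IPTG-treated control, 476.1 and 498.2 CPM in CAF-1 OFF and 255.1 and 316.8 CPM in HOXA9 OFF iGMPs. Both HOXA9 OFF values were below the other 6, and the log2 fold change was -0.79 (edgeR FDR 0.00643, SE 0.18). Scd2, the most abundant member, was at 1746 and 2133 CPM in uninduced, 1993 and 1920 CPM in IPTG-treated control, 2019 and 1723 CPM in CAF-1 OFF and 937 and 1181 CPM in HOXA9 OFF iGMPs. Its log2 fold change in HOXA9 OFF iGMPs was -0.87 (edgeR FDR 0.0024, SE 0.16), and its 2 HOXA9 OFF libraries did not overlap with any other. Acly, at the head of the pathway, was at 656 ± 44.9 CPM (SD, n = 2) in uninduced and 534 ± 6.30 CPM in HOXA9 OFF iGMPs, a log2 fold change of -0.30 (edgeR FDR 0.034) that was under 1.5-fold.

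**Figure D2:**
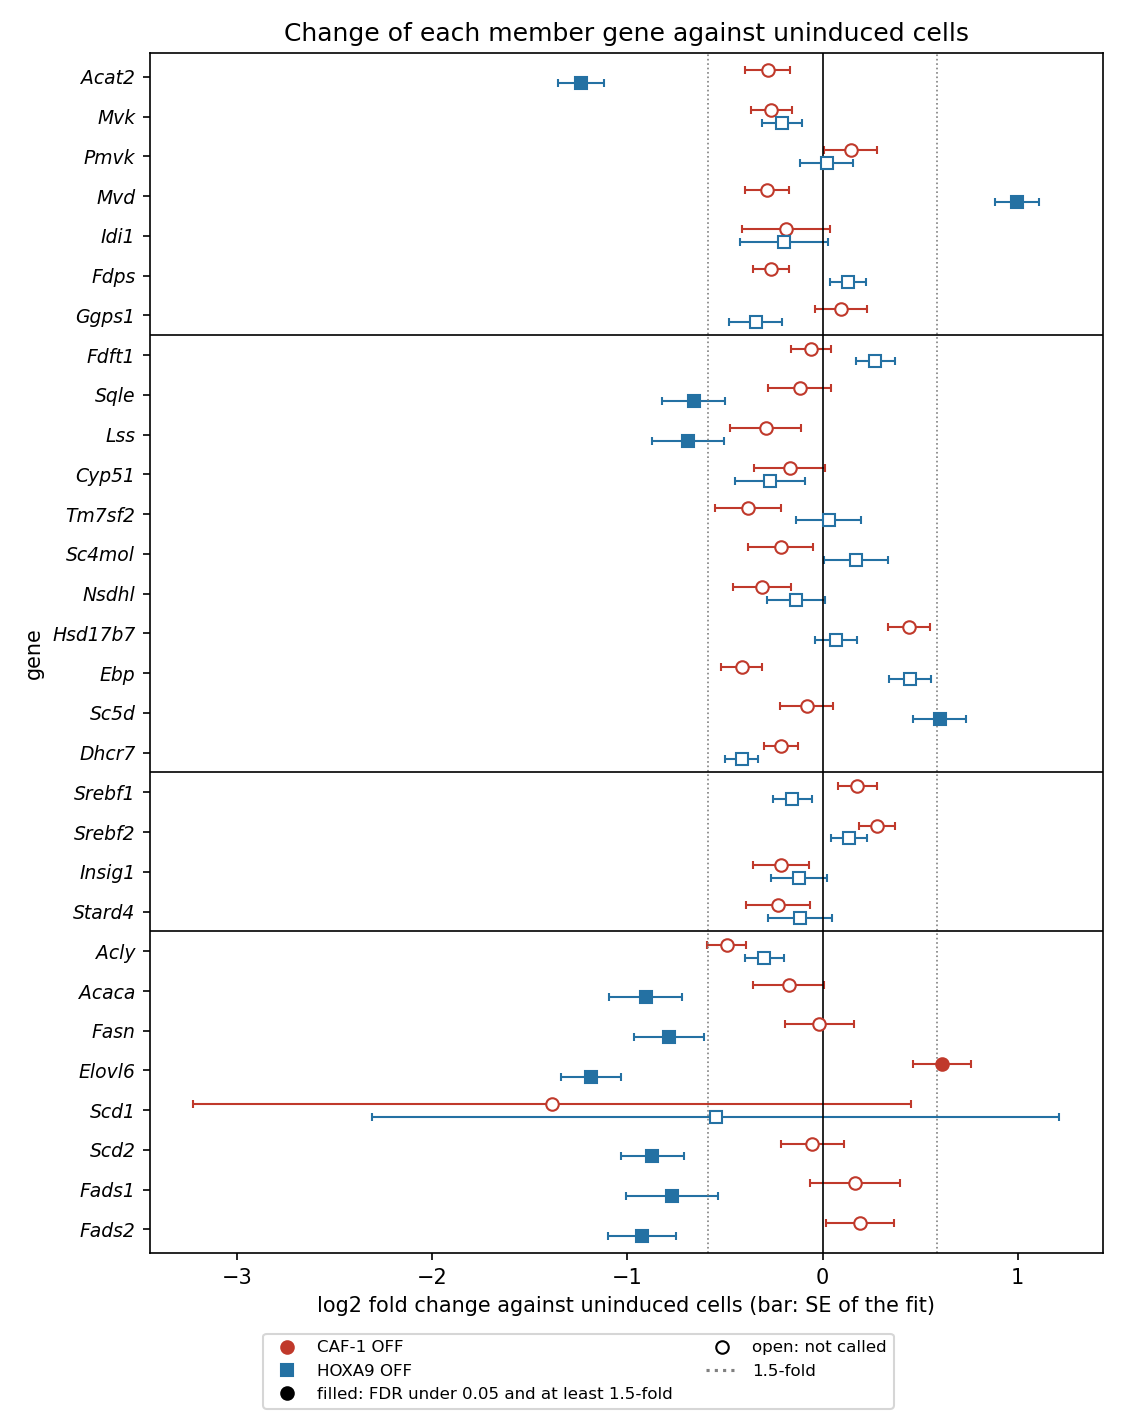
Each row is a member gene and the horizontal axis is the log2 fold change against uninduced iGMPs, with the standard error of the fit as bars. Circles are CAF-1 OFF and squares HOXA9 OFF iGMPs, filled where the gene was called; 6 of 8 fatty acid genes are filled on the left for HOXA9 OFF, and Elovl6 is the only filled circle.

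Scd1 could not be compared between groups because its replicates differed more than the groups did. It had 1 and 105 counts in uninduced, 1 and 67 counts in IPTG-treated control, 2 and 60 counts in HOXA9 OFF, and 15 and 18 counts in CAF-1 OFF iGMPs. As levels these were 0.045 and 4.49 CPM, 0.071 and 4.11 CPM, 0.109 and 2.98 CPM, and 0.790 and 0.941 CPM. In 3 groups the library numbered replicate 1 lay below the floor of 3 counts and that numbered replicate 2 well above it, while the CAF-1 OFF libraries lay between. The standard error of its log2 fold change was from 1.75 to 1.86 in the 5 comparisons, and 0 of them were called. Scd1 shares part of its sequence with Scd2, Scd3 and Scd4, and 95.3% of the 50-base windows of its transcript were unique.

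The other 7 fatty acid genes differed less between replicates. Replicate 2 was above replicate 1 for 7 of 7 of them in uninduced (median ratio 1.22), 6 of 7 in IPTG-treated control (median ratio 1.21) and 6 of 7 in HOXA9 OFF iGMPs (median ratio 1.25), but for 2 of 7 in CAF-1 OFF iGMPs (median ratio 0.981). Among the 7 measured mevalonate pathway genes the numbers were 2 of 7 in uninduced, 4 of 7 in IPTG-treated control, 7 of 7 in HOXA9 OFF and 4 of 7 in CAF-1 OFF iGMPs. From squalene to cholesterol they were 4, 6, 7 and 2 of 11 in the same order. Over all 30 members they were 16, 18, 24 and 10 of 30. What libraries with the same number share is not stated in the labels.

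**Figure D3:**
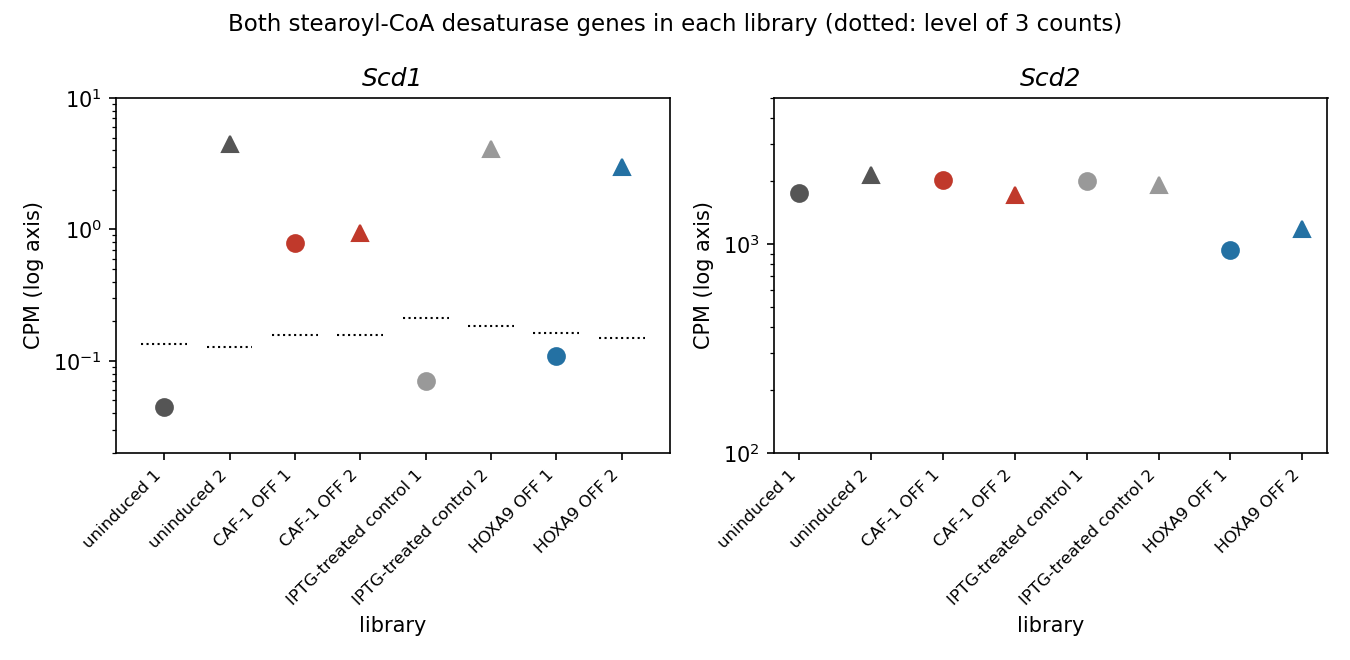
Levels of Scd1 and Scd2 in each of the 8 libraries, in CPM on log axes; circles are replicate 1, triangles replicate 2, and dotted lines in the Scd1 panel mark the level of 3 counts in each library. Scd1 is below that line in replicate 1 of 3 groups, while its CAF-1 OFF points are 0.790 and 0.941 CPM, whereas Scd2 is within 937 and 2133 CPM in all 8 libraries.

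The mevalonate pathway moved in both directions in HOXA9 OFF iGMPs. Mvd, which encodes the decarboxylase that makes isopentenyl diphosphate, was at 42.2 and 44.4 CPM in uninduced, 40.8 and 41.3 CPM in IPTG-treated control, 33.6 and 37.5 CPM in CAF-1 OFF and 81.2 and 91.8 CPM in HOXA9 OFF iGMPs. It was the member with the largest rise, by 1.00 on the log2 scale (edgeR FDR 0.000211, SE 0.11). Acat2, the acetyl-CoA acetyltransferase at the entry of the pathway, was at 77.3 and 85.4 CPM in uninduced, 72.6 and 76.7 CPM in IPTG-treated control, 71.6 and 62.3 CPM in CAF-1 OFF and 33.2 and 35.8 CPM in HOXA9 OFF iGMPs. It fell in HOXA9 OFF iGMPs by 1.24 on the log2 scale (edgeR FDR 9.35e-05, SE 0.12), the largest fall of a member. Of its 50-base windows 54.1% were unique and the others were shared with Acat3 and Tcp1, so its level as a single gene is uncertain. Mvd (mm9 chr8:124957496-124967322) overlaps Gm20388 on the opposite strand, and reads of the pair cannot be told apart where the counting ignored strand. The same holds for Lss with 4930483K19Rik, Acaca with Gm11437 and Gm17722, Srebf1 with Rai1 and Ggps1 with Arid4b. Tm7sf2 overlaps 1110014N23Rik on its own strand. The other measured genes of the section, Mvk and Pmvk (the mevalonate and phosphomevalonate kinase genes), Idi1, Fdps and Ggps1 (geranylgeranyl diphosphate synthase), had log2 fold changes from -0.34 to 0.13 and were not called. Idi1 was the least abundant of them, with 84 to 135 counts per library.

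Between squalene and cholesterol 2 genes fell and 1 rose in HOXA9 OFF iGMPs. Sqle, whose product oxidises squalene and limits the rate of the pathway, was at 227.3 and 251.2 CPM in uninduced, 232.2 and 253.4 CPM in IPTG-treated control, 235.7 and 205.6 CPM in CAF-1 OFF and 126.9 and 176.0 CPM in HOXA9 OFF iGMPs. Its log2 fold change was -0.66 (edgeR FDR 0.00944, SE 0.16). Lss, which closes the rings of lanosterol in the next step, was at 84.3 and 95.5 CPM in uninduced, 84.9 and 90.2 CPM in IPTG-treated control, 82.7 and 64.3 CPM in CAF-1 OFF and 46.6 and 65.0 CPM in HOXA9 OFF iGMPs. Its log2 fold change was -0.69 (edgeR FDR 0.0138, SE 0.18), and HOXA9 OFF replicate 2 lay just above CAF-1 OFF replicate 2. Sc5d, a sterol desaturase gene late in the pathway, was at 115.7 and 106.0 CPM in uninduced, 122.2 and 92.6 CPM in IPTG-treated control, 106.6 and 103.1 CPM in CAF-1 OFF and 172.6 and 163.6 CPM in HOXA9 OFF iGMPs. Its rise was 1.52-fold (log2 fold change 0.60, edgeR FDR 0.00645, SE 0.14), close to the threshold of 1.5-fold, and the call was lost under 8 of 16 alternatives.

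The remaining 8 genes of this section were not called in HOXA9 OFF iGMPs. Dhcr7, which encodes the reductase of the final step, had a log2 fold change of -0.42 (edgeR FDR 0.00437) and Ebp, the sterol isomerase gene, one of 0.45 (edgeR FDR 0.00794); both were under 1.5-fold. Fdft1 (squalene synthase), Cyp51 (lanosterol demethylase), Tm7sf2 (a sterol reductase) and the demethylation genes Sc4mol, Nsdhl and Hsd17b7 had log2 fold changes from -0.27 to 0.27 with FDR values from 0.0516 to 0.89. Fdft1 overlaps Ctsb on the opposite strand and shares 50-base windows with it (74.4% unique), and whether the counting used strand is not stated, so its level is uncertain.

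None of the regulators was called in any of the 5 comparisons. Srebf1 was at 204.3 ± 5.51 CPM (SD, n = 2) in uninduced, 203.7 ± 0.844 CPM in IPTG-treated control, 230.9 ± 10.5 CPM in CAF-1 OFF and 183.6 ± 17.6 CPM in HOXA9 OFF iGMPs. Srebf2 was at 331.4 and 333.5 CPM in uninduced, 353.8 and 339.7 CPM in IPTG-treated control, 404.4 and 401.1 CPM in CAF-1 OFF and 350.9 and 378.5 CPM in HOXA9 OFF iGMPs. Insig1 and Stard4, a sterol carrier gene, had log2 fold changes from -0.26 to 0.03 over the 4 comparisons with a control as reference. For the 4 genes together the log2 fold changes were from -0.15 to 0.13 in HOXA9 OFF and from -0.23 to 0.28 in CAF-1 OFF against uninduced iGMPs. The lowest FDR among those values was 0.0694, that of Srebf2 in CAF-1 OFF iGMPs. Transcript levels of SREBP genes do not measure the processed proteins.

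The number of members called in HOXA9 OFF iGMPs depended on single libraries. Without uninduced replicate 2, Sqle, Lss, Fasn, Fads1 and Sc5d were no longer called. Without HOXA9 OFF replicate 1, Sqle, Lss, Fads1 and Sc5d were lost. Each of these fits left 1 library in a group, and fewer of all tested genes were called in them as well. Over 16 alternatives the log2 fold changes were from -0.91 to -0.44 for Sqle and from -0.95 to -0.47 for Lss. They were from -0.99 to -0.56 for Fasn, from -1.12 to -0.49 for Fads1 and from 0.41 to 0.66 for Sc5d. A test against the 1.5-fold threshold itself (glmTreat) left 5 calls, which were Mvd, Acat2, Elovl6, Scd2 and Fads2.

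**Figure D4:**
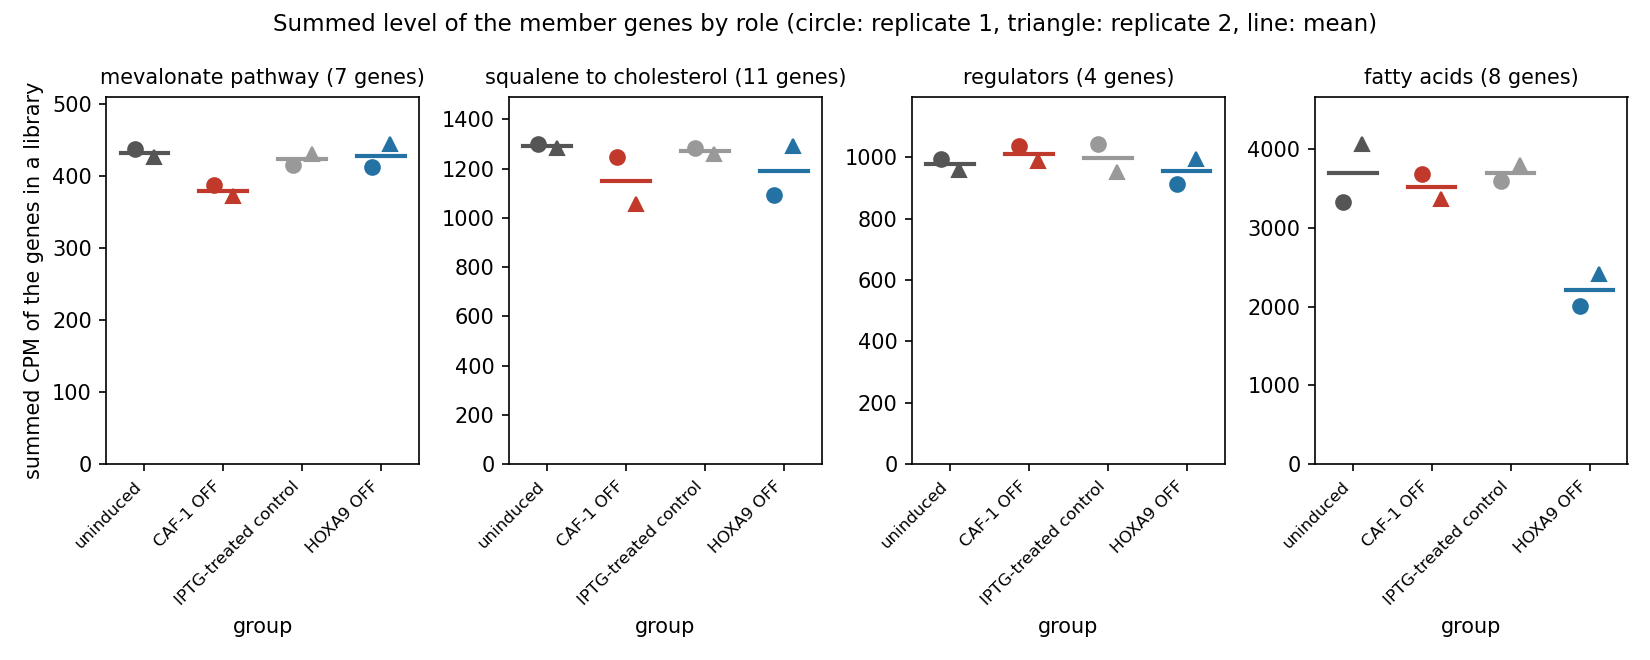
Each panel sums the CPM of the measured genes of 1 role in each library, on axes that start at 0; circles are replicate 1, triangles replicate 2 and lines the group means. The fatty acid sum is 2001 and 2412 CPM in HOXA9 OFF iGMPs and at least 3322 CPM in the other 6 libraries, while the sums of the other roles in HOXA9 OFF iGMPs overlap with those of uninduced iGMPs.

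CAF-1 OFF was set against the uninduced state to see whether these genes change when the chaperone is lost. It shares its uninduced libraries with the comparison above. Of the 30 members 1 was called, Elovl6, while 14% of all tested genes were called, 10.5% higher and 3.5% lower. Against IPTG-treated control iGMPs, which had IPTG for the same time, 1 member was again called, Elovl6, and 12.8% of all genes were called, 9.56% higher and 3.2% lower. The median log2 fold changes of the members were -0.18 and -0.17, against 0.01 and 0.01 for all tested genes. Without CAF-1 OFF replicate 2 the member medians were -0.065 and -0.043, against 0.009 and 0.004 for all genes. The fatty acid genes summed to 3678 and 3364 CPM in CAF-1 OFF iGMPs, within the range of the uninduced libraries. The sums of both sterol sections lay below all 4 control libraries, and these sums were not tested. Mevalonate pathway genes summed to 388 and 372 CPM, against 438 and 426 CPM in uninduced and 415 and 431 CPM in IPTG-treated control iGMPs. From squalene to cholesterol the sums were 1248 and 1056 CPM, against 1298 and 1284 CPM in uninduced and 1285 and 1260 CPM in IPTG-treated control iGMPs.

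Elovl6 was 1.53-fold higher in CAF-1 OFF than in uninduced iGMPs (log2 fold change 0.61, edgeR FDR 0.0287, SE 0.15) and 1.54-fold higher than in IPTG-treated control iGMPs (log2 fold change 0.62, edgeR FDR 0.0302, SE 0.15). Both CAF-1 OFF libraries lay above all 6 others. This call was near both thresholds. Against uninduced iGMPs it was lost when any 1 of the uninduced, CAF-1 OFF or IPTG-treated control libraries was left out, with log2 fold changes from 0.52 to 0.70. It was kept without HOXA9 OFF replicate 1 or 2. Against IPTG-treated control iGMPs it was lost without any 1 of the 4 libraries compared. Each fit in which it was lost left 1 library in a group, and fewer of all tested genes were called in that fit as well. With glmTreat the FDR values were 0.895 and 0.872. Of the 6 neutrophil markers 4 were called higher in CAF-1 OFF against uninduced iGMPs as well, with the sums of 176.3 and 260.5 CPM given above, and so were 1 of 4 tested macrophage, 1 of 6 progenitor and 1 of 7 cell cycle markers. Against IPTG-treated control iGMPs 4 of 6 neutrophil, 1 of 4 macrophage, 1 of 6 progenitor and 0 of 7 cell cycle markers were called higher (1 of 7 with an unadjusted p under 0.05 in edgeR). Their part in the Elovl6 result was not tested.

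Other members passed the FDR and stayed under 1.5-fold in CAF-1 OFF iGMPs. Acly was at 478 and 456 CPM there, below both uninduced libraries (625 and 688 CPM) and both IPTG-treated control libraries (643 and 676 CPM). Its log2 fold changes were -0.49 (edgeR FDR 0.0172) and -0.50 (edgeR FDR 0.0182). Hsd17b7, a gene of sterol demethylation, was at 48.4 ± 2.17 CPM (SD, n = 2) in CAF-1 OFF, 35.7 ± 0.514 CPM in uninduced and 33.7 ± 2.25 CPM in IPTG-treated control iGMPs, with log2 fold changes of 0.44 (edgeR FDR 0.0283) and 0.53 (edgeR FDR 0.0197). Ebp and Dhcr7 passed the FDR against 1 control only. For Ebp the log2 fold change was -0.41 (edgeR FDR 0.0328) against uninduced and -0.35 (edgeR FDR 0.0585) against IPTG-treated control iGMPs. For Dhcr7 it was -0.21 (edgeR FDR 0.117) against uninduced and -0.30 (edgeR FDR 0.0498) against IPTG-treated control iGMPs.

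A direct comparison set CAF-1 OFF against HOXA9 OFF iGMPs, without the control libraries as a reference. Calls were made for 10 of the 30 members, of which 7 had the higher level in CAF-1 OFF and 3 in HOXA9 OFF iGMPs, while 43.5% of all tested genes were called, 22.2% higher and 21.4% lower. This comparison uses the same HOXA9 OFF libraries as the one against uninduced iGMPs, so the values of the 6 fatty acid genes that fell there are given as a description and not as further support. The largest difference was that of Elovl6, 3.48-fold higher (log2 fold change 1.80, edgeR FDR 1e-04, SE 0.16). Fads2 was higher by 1.12 (edgeR FDR 0.00133, SE 0.18) and Fads1 by 0.94 (edgeR FDR 0.0111, SE 0.23) on the log2 scale. The differences of Scd2, Fasn and Acaca on that scale were 0.82 (edgeR FDR 0.00379, SE 0.16), 0.77 (edgeR FDR 0.00792, SE 0.18) and 0.73 (edgeR FDR 0.012, SE 0.19).

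Sterol genes went both ways in this direct comparison. Acat2 was higher in CAF-1 OFF iGMPs (log2 fold change 0.96, edgeR FDR 0.000433, SE 0.12), and Mvd was lower (log2 fold change -1.28, edgeR FDR 0.00011, SE 0.12). Sc5d was also lower (log2 fold change -0.68, edgeR FDR 0.00419, SE 0.14). Ebp was at 65.2 and 58.1 CPM in uninduced, 59.4 and 58.7 CPM in IPTG-treated control, 46.0 and 46.5 CPM in CAF-1 OFF and 80.2 and 88.0 CPM in HOXA9 OFF iGMPs. CAF-1 OFF lay below and HOXA9 OFF above both control groups, and the log2 fold change between them was -0.86 (edgeR FDR 0.00045, SE 0.11). Sqle and Lss, which had fallen in HOXA9 OFF iGMPs, were not called here (log2 fold changes 0.54 and 0.40, edgeR FDR 0.0234 and 0.104). All 4 marker lists moved between these groups as well: 6 of 6 neutrophil and 3 of 4 tested macrophage markers were called lower in CAF-1 OFF iGMPs, and 4 of 6 progenitor and 5 of 7 cell cycle markers higher, with the sums given above. Their part in the result was not tested.

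Promoter sequences were examined for letters known to bind the regulators of these genes. RefSeq promoters (GRCm38.p6) were at hand for 24 of the 31 members, Hmgcs1 included and Sc4mol under its newer symbol Msmo1; there was no entry for Sqle, Fdft1, Fdps, Stard4, Fads1, Scd1 and Scd2. Only the 250 bases before each start site were searched, on both strands. CACNCCAC, a core of the sterol regulatory element, was in the promoters of 3 of 24 members (12.5%) and 6.05% of all 27025 genes with a promoter. The members were Hmgcs1, Insig1 and Acat2. CCAAT, the core of sites for NF-Y, was in 19 of 24 members (79.2%) and 37.5% of all genes, and GGGCGG, a GC box bound by Sp1, was in 19 of 24 members (79.2%) and 35.4% of all genes. The 2 shorter motifs were not alike over the roles. All 9 genes from squalene to cholesterol with a promoter held CCAAT and all 9 held GGGCGG, whereas of 5 fatty acid genes 1 held CCAAT and 2 held GGGCGG. A match of letters is a description and not a binding site. Genes with several listed start sites had more windows to match. Not every window lies at the gene start of GENCODE vM1: among the 5 fatty acid genes that of Acaca ends 65766 bases past it, within the gene.

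The windows of 5 members on which the results turn are shown, 5′ to 3′ in the direction of the gene, with each match to CACNCCAC, CCAAT or GGGCGG on either strand in capitals. Their positions are those of an exact match to the mm9 genome, the build of the counts. Mvd (chr8:124967323-124967572, minus strand) and Sc5d (chr9:42072384-42072633, minus strand) are the members that rose in HOXA9 OFF iGMPs. Acat2 (chr17:13153592-13153841, minus strand) and Elovl6 (chr3:129235054-129235303, plus strand) are those that fell most, and Fasn (chr11:120685862-120686111, minus strand) is the synthase itself.
Mvd: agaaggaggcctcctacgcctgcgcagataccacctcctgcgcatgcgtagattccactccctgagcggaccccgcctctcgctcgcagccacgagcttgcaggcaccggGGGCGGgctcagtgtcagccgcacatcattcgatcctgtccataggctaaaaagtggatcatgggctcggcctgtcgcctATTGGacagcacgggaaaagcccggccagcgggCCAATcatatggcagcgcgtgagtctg
Sc5d: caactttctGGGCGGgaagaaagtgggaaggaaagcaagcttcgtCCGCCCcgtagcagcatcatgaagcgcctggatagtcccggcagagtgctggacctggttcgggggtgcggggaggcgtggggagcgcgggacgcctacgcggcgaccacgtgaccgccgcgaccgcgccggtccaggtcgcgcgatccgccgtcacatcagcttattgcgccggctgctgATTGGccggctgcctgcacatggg
Acat2: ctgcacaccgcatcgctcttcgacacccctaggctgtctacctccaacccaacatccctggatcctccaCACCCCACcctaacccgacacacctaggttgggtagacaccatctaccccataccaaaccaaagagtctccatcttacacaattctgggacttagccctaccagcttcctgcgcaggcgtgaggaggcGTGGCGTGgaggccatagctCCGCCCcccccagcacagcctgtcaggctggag
Elovl6: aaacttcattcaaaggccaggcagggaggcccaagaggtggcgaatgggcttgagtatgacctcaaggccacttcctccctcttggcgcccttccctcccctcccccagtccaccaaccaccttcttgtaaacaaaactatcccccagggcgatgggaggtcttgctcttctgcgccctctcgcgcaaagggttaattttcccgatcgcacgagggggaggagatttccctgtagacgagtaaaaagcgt
Fasn: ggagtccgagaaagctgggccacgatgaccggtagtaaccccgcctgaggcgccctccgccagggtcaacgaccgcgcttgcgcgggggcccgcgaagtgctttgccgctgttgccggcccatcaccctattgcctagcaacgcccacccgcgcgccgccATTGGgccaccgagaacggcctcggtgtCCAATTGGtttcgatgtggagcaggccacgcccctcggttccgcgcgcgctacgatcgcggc

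Mvd and Sc5d held both shorter motifs in these windows and Acat2 held the longer one and GGGCGG. Fasn held CCAAT alone. Elovl6, the member called at 1.5-fold against uninduced iGMPs in both treatments, held none of these letters in its window. The window of Acat2 reaches 22 bases past the gene start of GENCODE vM1, and that of Fasn ends 369 bases before it. Those of Mvd, Sc5d and Elovl6 end directly at the annotated start.

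Genes next to the pathway were counted from a list of 48, of which 45 were tested. In HOXA9 OFF against uninduced iGMPs 20 of them were called, 11 higher and 9 lower, beside 47.2% of all tested genes (25.2% higher and 22.1% lower), so the share called was near that of all genes. Of 11 tested genes of sterol sensing, uptake and remaining synthesis 4 rose and 1 fell, and of 6 tested genes of efflux and esterification 2 rose and 0 fell. Lipa, the lysosomal lipase that frees cholesterol from its esters, was at 56.6 and 55.2 CPM in uninduced and 300.9 and 755.1 CPM in HOXA9 OFF iGMPs (log2 fold change 3.24, edgeR FDR 0.000275, SE 0.39), with a wide gap between the HOXA9 OFF libraries. In the efflux list the highest was Nr1h3, the gene of the sterol sensor LXR-alpha (log2 fold change 1.80, edgeR FDR 0.0188, SE 0.52), at under 0.8 CPM in every library. The lowest called gene of that list was Soat1, which encodes the enzyme that esterifies cholesterol, at 97.2 and 96.0 CPM in uninduced and 267.4 and 372.9 CPM in HOXA9 OFF iGMPs (log2 fold change 1.73, edgeR FDR 0.000128, SE 0.18).

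Of 13 tested genes of fatty acid activation and other synthesis 3 rose and 3 fell in HOXA9 OFF iGMPs, the highest being the elongase gene Elovl7 (log2 fold change 1.81, edgeR FDR 0.000418, SE 0.24) and the lowest the acyl-CoA synthetase gene Acsl3 (log2 fold change -1.51, edgeR FDR 0.000143, SE 0.16). Of 15 fatty acid oxidation genes 2 rose and 5 fell, again near the 47.2% called among all genes. The lowest was Hadh, a mitochondrial dehydrogenase gene of the same route, at 163.0 and 151.7 CPM in uninduced and 66.7 and 67.0 CPM in HOXA9 OFF iGMPs (log2 fold change -1.24, edgeR FDR 2.89e-05, SE 0.09).

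In CAF-1 OFF iGMPs 8 of these 45 genes were called against uninduced iGMPs, 5 higher and 3 lower, and 7 against IPTG-treated control iGMPs, 4 higher and 3 lower; of all tested genes 14% and 12.8% were called, so these shares too were near the background. Acss2, which makes acetyl-CoA from acetate, was at 9.79 and 10.4 CPM in uninduced, 7.14 and 12.3 CPM in IPTG-treated control, 23.2 and 25.0 CPM in CAF-1 OFF and 29.8 and 32.8 CPM in HOXA9 OFF iGMPs. It rose in CAF-1 OFF iGMPs against both controls (log2 fold changes 1.26 and 1.31, edgeR FDR 0.0144 and 0.0145). Acacb, the mitochondrial counterpart of Acaca, was at 4.50 and 7.10 CPM in uninduced, 3.96 and 6.20 CPM in IPTG-treated control, 11.6 and 16.7 CPM in CAF-1 OFF and 2.60 and 3.42 CPM in HOXA9 OFF iGMPs. Its log2 fold changes in CAF-1 OFF iGMPs were 1.29 (edgeR FDR 0.036) and 1.48 (edgeR FDR 0.0279). Elovl7 (log2 fold changes 1.11 and 1.57, edgeR FDR 0.0192 and 0.00968) and Mylip, whose product marks lipoprotein receptors for degradation (0.83 and 0.83, edgeR FDR 0.015 and 0.0162), were also higher. Nr1h3, with 3 to 15 counts per library, was called against uninduced (log2 fold change 1.82, edgeR FDR 0.045) and not against IPTG-treated control iGMPs (log2 fold change 1.42, edgeR FDR 0.101).

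The genes called lower in CAF-1 OFF iGMPs were Acads, Mbtps2 and Elovl1. Acads, a mitochondrial acyl-CoA dehydrogenase gene, was at 218.9 and 203.2 CPM in uninduced, 185.7 and 223.7 CPM in IPTG-treated control, 113.2 and 96.1 CPM in CAF-1 OFF and 117.9 and 134.5 CPM in HOXA9 OFF iGMPs. It fell in CAF-1 OFF iGMPs by 1.01 (edgeR FDR 0.00568) and 0.97 (edgeR FDR 0.00714) on the log2 scale, and in HOXA9 OFF iGMPs by 0.74 (edgeR FDR 0.00218). Mbtps2, the gene of a protease that releases SREBP from the membrane, was at 50.5 and 54.2 CPM in uninduced, 54.8 and 46.6 CPM in IPTG-treated control, 35.3 and 31.4 CPM in CAF-1 OFF and 43.7 and 44.6 CPM in HOXA9 OFF iGMPs (log2 fold changes in CAF-1 OFF iGMPs -0.65 and -0.60, edgeR FDR 0.0147 and 0.0198). Elovl1, an elongase gene for very long chains, had log2 fold changes of -0.62 and -0.62 (edgeR FDR 0.013 and 0.0146).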

How the data were processed

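Bulk RNA-seq was measured in 8 libraries. The deposited values were raw read counts per gene symbol, which the authors made by aligning to mm9 with STAR and counting with HTSeq; replicates were not pooled, and use of strand is not stated. Per file, 5 summary counts were set apart. Total gene counts were 14044284 to 22423837. Counts were fitted in edgeR 4.0.16 (R 4.3.3) over all 8 libraries (filterByExpr on the groups, TMM, quasi-likelihood test, Benjamini-Hochberg over 13080 genes). Genes with FDR under 0.05 and a change of 1.5-fold or more were called. Standard errors were taken from each log2 fold change and its F statistic. With 2 libraries per group, precision rests on a shared spread (biological coefficient of variation 18.9%). The floor of 3 counts covers counting error only, since PCR copies were not separated.

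Members, roles, companion genes and tests were chosen with earlier results of these data known. Every measured member is named; those called in any comparison are given per library. Of companion genes, those called in CAF-1 OFF cells and the highest and lowest call of each list in HOXA9 OFF cells are named, apart from some that are not reported here. Gene models were GENCODE vM1 (mm9), promoters RefSeq (GRCm38.p6). The code was tested on simulated data. Alternatives were other scalings and filters, DESeq2 1.42.0, glmTreat, fits of the 4 libraries compared, a replicate block, each library left out, and other thresholds. Replicates differed by more than sampling noise (chi-square per degree of freedom 16.6 to 78.2). The DESeq2 adjusted p was left as given where it was missing.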

Additional observations from a re-analysis of the deposited data

How the results depend on the processing

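Every member that was called in any comparison kept its direction under each alternative run. Under glmTreat the number of members called went to 0 in CAF-1 OFF against uninduced, 0 against IPTG-treated control, 5 in HOXA9 OFF against uninduced (fatty acid genes 3) and 5 in CAF-1 OFF against HOXA9 OFF cells (fatty acid genes 2). Of all 13080 tested genes glmTreat called 506, 468, 4443 and 3738 in the same order. At FDR 0.01 with 2-fold the members called were 0, 0, 2 (1) and 3 (2), beside 364, 282, 3579 and 3008 of all genes. At FDR 0.05 with no fold threshold CAF-1 OFF gave 4, 4 and 16 members in its 3 comparisons. Of all genes 2715, 2408 and 7123 passed there. Leaving out 1 library gave 0 to 1, 0 to 1, 6 to 11 (4 to 6) and 9 to 12 (5 to 6). Other scalings, filters, DESeq2 and fits of only the 4 libraries compared stayed within 1.5 times of each number. Counts for the fatty acid genes alone were chosen after seeing the data. Scaling by library size only shifted all genes, whose median log2 value became -0.18 in HOXA9 OFF against uninduced cells, where 1 member was then called higher and 10 lower, and 0.27 in CAF-1 OFF against HOXA9 OFF cells (11 higher, 2 lower); Sc5d was then no longer called in either. Of all genes, calls then split into 2715 higher and 3701 lower (otherwise 3293 and 2886), and 3949 higher and 2064 lower (otherwise 2898 and 2797). Of 121 pairs of a member and a comparison that were never called, 52 changed sign under some alternative.

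With the replicate number as a block the numbers were 1, 1, 11, 0 (IPTG-treated control against uninduced) and 10, and no member's call changed. What a replicate number stands for is not given in the labels. For same-numbered libraries, deviations from the group means correlated across genes at 0.48, 0.30 and 0.32 for uninduced with IPTG-treated control, uninduced with HOXA9 OFF, and IPTG-treated control with HOXA9 OFF, and at -0.04 to 0.08 with CAF-1 OFF cells. Over the 30 members these were 0.98, 0.96 and 0.97, and 0.30 to 0.37 with CAF-1 OFF; without Scd1 they were 0.64, 0.44 and 0.50, and -0.12 to 0.21. The numbers were not treated as pairs, since CAF-1 OFF libraries did not share the deviations across all genes. With 2 libraries per group, genes near the floor such as Scd1 and Nr1h3 are the least certain.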
